A study of Mus musculus with 4 samples.

Results

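The genes described here are 40 interferon-stimulated genes, whose transcription is known to rise in cells exposed to type I or type II interferon. They were chosen by symbol and not by a rule on their values, although earlier results of these data were known. All 40 were found among the 49315 genes of the count table. All 40 had reads in all 4 libraries, and all 40 passed the low-count filter, a scaled CPM (counts per 1e+06 reads) that reached 1 in some library, which 14840 genes passed.

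RNA came from lung cells sorted and labelled as group 2 innate lymphoid cells (ILC2s). ILC2s are lymphocytes without antigen receptors that reside in the lung and are known for type 2 cytokines. The 4 groups were sequenced with 1 library each. PBS-WT and BLEO-WT were from wild-type C57BL/6 mice given PBS or bleomycin, a drug that injures the lung and leads to fibrosis, and PBS-HPS1 and BLEO-HPS1 were from *Hps1*-/- mice given the same agents. *Hps1* encodes a subunit of a complex needed to make lysosome-related organelles, and its loss causes Hermansky-Pudlak syndrome type 1. Per the methods, cells were sorted as Lineage- Thy1.2+ ICOS+ T1/ST2+ and were cultured with IL-2 at 10 ng/mL in all groups before RNA was extracted. The methods describe mice aged 10 weeks given 6 daily intraperitoneal injections of 25 U/kg bleomycin and killed on day 12, and also an intratracheal model. They do not say which of these, or how many mice, gave the sequenced cells.

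Interferons are secreted proteins, those of type I released by cells that sense foreign or misplaced nucleic acid. They bind paired receptors on the surface, receptor-bound JAK kinases phosphorylate STAT proteins, and STAT proteins then bind short promoter motifs, with IRF9 the interferon-stimulated response element and, after interferon gamma, the gamma-activated site. The genes switched on this way sense viral RNA, degrade it, block its translation, restrict virus entry and release, tag proteins with ISG15, and damp the receptor again.

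Total counts ranged from 72513619 to 87638154, and the RNA came from 22405 and 38873 cells for PBS-WT and PBS-HPS1 and 84166 and 128647 cells for BLEO-WT and BLEO-HPS1. Since no group had a replicate, the spread between mice is unknown, so no p-value is given, a gene was called different once its ratio reached 2-fold (a log2 ratio of 1 or more, or of -1 or less), and intervals are exact Clopper-Pearson intervals at 95% that cover counting error only. *Hps1* itself stood at 38.3 and 48.4 CPM in PBS-WT and BLEO-WT and at 16.6 and 21.3 CPM in PBS-HPS1 and BLEO-HPS1. The ILC2 label was checked against its markers: *Gata3* stood between 25.1 and 39.1 CPM and *Il1rl1*, which encodes the T1/ST2 receptor, between 23.8 and 40.9 CPM, whereas *Il13* reached at most 1.43 CPM, *Il5* 1.06 CPM and *Ptgdr2*, which encodes CRTH2, 0.818 CPM. *Thy1*, also a gene of the sort gate, was far higher than these, and its values are given with the marker lists below. The whole ILC2 list summed to between 537 and 768 CPM, and the monocyte and macrophage list to between 8910 and 19732 CPM. The macrophage gene *Lyz2* stood between 6083 and 13145 CPM, although the sort excluded CD11b+ cells, and summed monocyte and macrophage markers exceeded summed ILC2 markers in every library. These levels go against the label of purified ILC2s, and the libraries are called by their group names here. In such bulk RNA, fewer cells of a type and less RNA per cell cannot be told apart.

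The promoters are shown first because the members are known for a response to interferon that is read there, and their sequence was not used to choose them. Promoter windows reaching from 250 bases before to 50 bases after the transcript start, from RefSeq on build GRCm38.p6, were matched by symbol for 29 of the 40 members, 5 of them with 2 windows, of which a match in either was counted. The windows were searched on both strands for GAAANNGAA followed by a further A, a form of the interferon-stimulated response element, and for TTCNNNGAA, the gamma-activated site. The first motif was present in 16 of the 29 members (55.2%) and in 3.99% of 27025 genes with a window. GAAANNGAA without that A, which every longer match also holds, was present in 17 of 29 (58.6%) and in 9.76% of all genes. The gamma-activated site was present in 8 of 29 (27.6%) and in 9.55% of all genes, and *Bst2*, *Eif2ak2*, *Gbp5*, *Gbp7* and *Oas1a* held both motifs, which overlap each other in *Bst2*. *Dhx58*, *Ifi27l2a*, *Ly6e*, *Mx1*, *Mx2*, *Oas2*, *Parp14*, *Parp9*, *Rtp4*, *Usp18* and *Zbp1* were not matched. A match describes letters in a window and is not evidence of binding.

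The 250 bases before the transcript start are printed for *Isg15*, *Oas1a*, *Oas3* and *Trim30a*, whose levels took different courses across the libraries, 5′ to 3′ on the gene's strand, with each match to the longer form or its reverse complement in capitals. *Isg15* held 3 overlapping matches and *Oas1a* 2.
Isg15, chr4:156200819-156201068, minus strand: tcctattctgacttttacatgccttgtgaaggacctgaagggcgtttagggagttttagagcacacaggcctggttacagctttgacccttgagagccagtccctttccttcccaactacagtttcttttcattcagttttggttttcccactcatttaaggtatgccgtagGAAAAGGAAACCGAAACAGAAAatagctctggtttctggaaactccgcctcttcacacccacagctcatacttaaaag
Oas1a, chr5:120907526-120907775, minus strand: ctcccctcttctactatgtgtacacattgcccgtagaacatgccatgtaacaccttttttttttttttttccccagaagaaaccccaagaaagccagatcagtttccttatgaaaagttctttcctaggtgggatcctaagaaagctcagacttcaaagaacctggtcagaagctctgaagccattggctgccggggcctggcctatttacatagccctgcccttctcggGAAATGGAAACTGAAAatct
Oas3, chr5:120777660-120777909, minus strand: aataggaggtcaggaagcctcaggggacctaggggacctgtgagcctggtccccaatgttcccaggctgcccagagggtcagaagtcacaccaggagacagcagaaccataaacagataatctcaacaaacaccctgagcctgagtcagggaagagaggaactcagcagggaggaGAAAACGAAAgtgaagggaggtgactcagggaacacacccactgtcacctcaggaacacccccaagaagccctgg
Trim30a, chr7:104465194-104465443, minus strand: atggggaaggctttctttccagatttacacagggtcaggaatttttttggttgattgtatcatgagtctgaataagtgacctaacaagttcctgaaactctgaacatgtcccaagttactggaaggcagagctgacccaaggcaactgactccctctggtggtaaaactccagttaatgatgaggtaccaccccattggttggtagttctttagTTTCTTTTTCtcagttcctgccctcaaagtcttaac

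For the other 12 members with the longer motif, the match nearest to the transcript start is printed with up to 10 bases on either side, again on the gene's strand with the motif in capitals. In *Gbp2*, *Gbp3*, *Gbp5*, *Gbp7*, *Ifit1*, *Ifit3*, *Rsad2* and *Stat2* the capitals are the reverse complement.
Bst2, chr8:71537577-71537606, minus strand: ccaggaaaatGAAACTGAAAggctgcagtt
Eif2ak2, chr17:78882535-78882564, minus strand: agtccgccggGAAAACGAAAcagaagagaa
Gbp2, chr3:142620594-142620623, plus strand: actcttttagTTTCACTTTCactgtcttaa
Gbp3, chr3:142559995-142560024, plus strand: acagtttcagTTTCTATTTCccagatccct
Gbp5, chr3:142496759-142496788, plus strand: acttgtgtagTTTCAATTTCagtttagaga
Gbp7, chr3:142530273-142530302, plus strand: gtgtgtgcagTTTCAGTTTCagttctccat
Ifih1, chr2:62646206-62646233, minus strand: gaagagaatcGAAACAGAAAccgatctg
Ifit1, chr19:34640794-34640823, plus strand: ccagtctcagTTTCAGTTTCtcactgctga
Ifit3, chr19:34583397-34583426, plus strand: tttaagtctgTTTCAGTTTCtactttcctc
Rsad2, chr12:26456553-26456582, minus strand: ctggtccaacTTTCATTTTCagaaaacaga
Slfn5, chr11:82951937-82951966, plus strand: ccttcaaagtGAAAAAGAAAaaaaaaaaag
Stat2, chr10:128270266-128270295, plus strand: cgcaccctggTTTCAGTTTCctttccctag

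PBS-WT and BLEO-HPS1 held the peaks. In 27 of the 40 the highest CPM was in PBS-WT, against 23.3% of all genes tested, and in the other 13 it was in BLEO-HPS1, against 41.4% of all genes. No member was highest in PBS-HPS1 or in BLEO-WT, where the rest of all genes had their highest level. The lowest CPM was in PBS-HPS1 for 18 members, in BLEO-HPS1 for 20 and in BLEO-WT for 2, against 44.5%, 37.4% and 7.77% of all genes. In 17 members the level was highest in PBS-WT, next in PBS-HPS1, then in BLEO-WT and lowest in BLEO-HPS1. The share of all genes with this order was not taken, so it is not known whether the count is unusual. The summed level of the 40 was 3336 and 2210 CPM in PBS-WT and PBS-HPS1 and 2453 and 3587 CPM in BLEO-WT and BLEO-HPS1, and *Ly6e* and *Samhd1* made up a large part of it, since without them the sums were 1906, 1225, 1227 and 1539 CPM. Below, values of a member are given with the PBS libraries before the bleomycin libraries and wild-type before *Hps1*-/- in each pair.

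**Figure D1:**
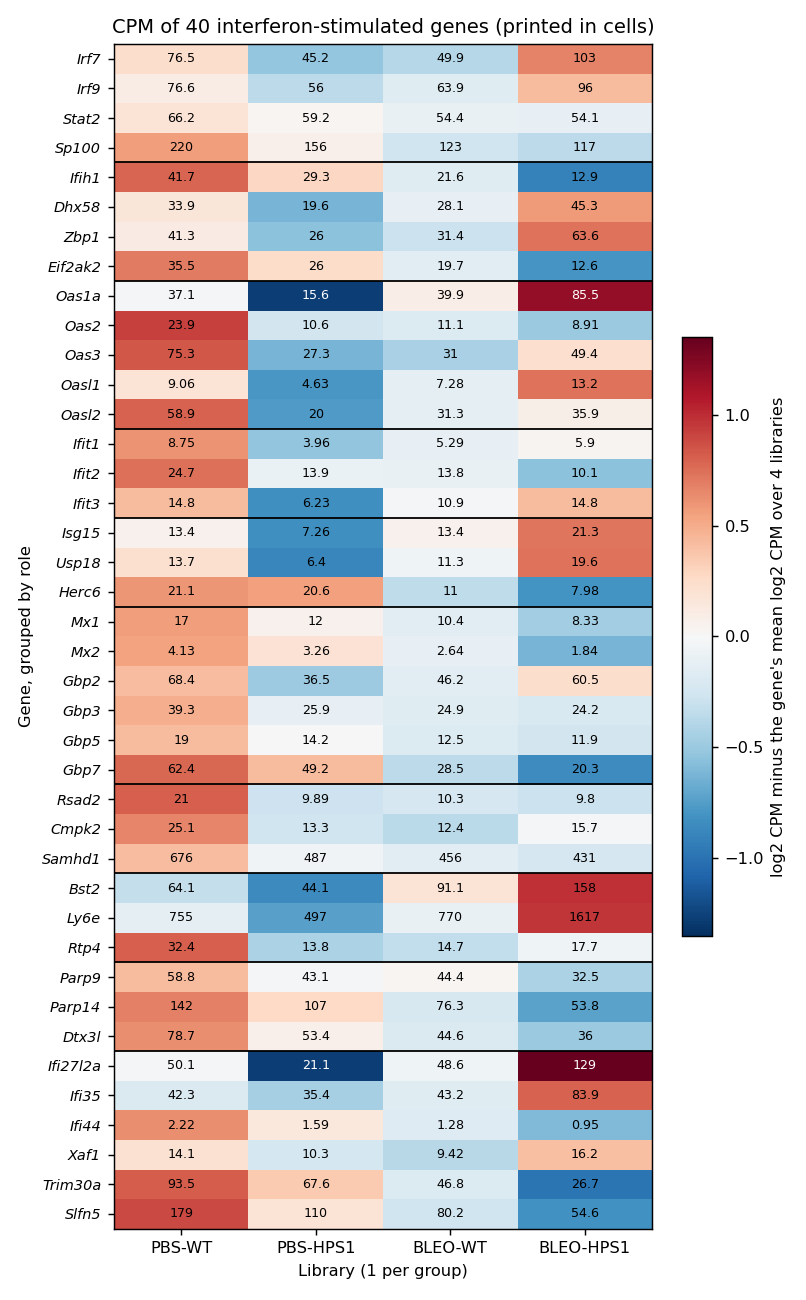
Level of each of the 40 genes (rows, grouped by role) in each library (columns, 1 library per group). The printed number is CPM and the colour is log2 CPM minus the gene's own mean over the 4 libraries, and PBS-WT or BLEO-HPS1 holds the highest value in every row, as for *Trim30a* at 93.5 CPM in PBS-WT and *Ly6e* at 1617 CPM in BLEO-HPS1.

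Among the transcription factors, *Irf7*, which drives the later waves of type I interferon genes, stood at 76.5, 45.2, 49.9 and 103 CPM. *Irf9*, the DNA-binding subunit of the complex it forms with STAT proteins, had 76.6, 56, 63.9 and 96 CPM. Both dipped in PBS-HPS1 and were highest in BLEO-HPS1. *Stat2*, the partner of IRF9, had 66.2, 59.2, 54.4 and 54.1 CPM, and *Sp100*, a nuclear body protein, 219.7, 156, 123 and 117 CPM. These 2 were highest in PBS-WT and lay within a narrow range in the bleomycin libraries. *Irf7* overlaps *Phrf1* on the opposite strand and *Irf9* overlaps *Rnf31* on the same strand, and the counting is not stated to use strand, so some of their reads may belong to the neighbour.

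The nucleic acid sensors divided in the bleomycin libraries. *Zbp1*, a sensor of Z-form nucleic acid that can start cell death, stood at 41.3, 26, 31.4 and 63.6 CPM, and *Dhx58*, which encodes the LGP2 helicase, at 33.9, 19.6, 28.1 and 45.3 CPM. *Ifih1*, which encodes MDA5, a sensor of long double-stranded RNA, stood at 41.7, 29.3, 21.6 and 12.9 CPM. *Eif2ak2*, the kinase PKR that halts translation on double-stranded RNA, stood at 35.5, 26, 19.7 and 12.6 CPM. *Zbp1* and *Dhx58* were thus highest in BLEO-HPS1, where *Ifih1* and *Eif2ak2* were lowest. The log2 ratios of BLEO-HPS1 to BLEO-WT were 1.02, 0.69, -0.74 and -0.64 for *Zbp1*, *Dhx58*, *Ifih1* and *Eif2ak2*. Once corrected for transcript GC content and length they were 0.67, 0.35, -0.077 and -0.071, so the last 2 were then near equal in the bleomycin libraries.

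The OAS family includes enzymes that make oligoadenylates, which activate the RNA-degrading enzyme RNase L. *Oas3* had 75.3, 27.3, 31 and 49.4 CPM, and *Oasl2* 58.9, 20.0, 31.3 and 35.9 CPM. *Oas1a* had 37.1, 15.6, 39.9 and 85.5 CPM. In these 3, PBS-HPS1 was the lowest library, and *Oas1a* alone of them exceeded its PBS-WT level after bleomycin in *Hps1*-/- cells. *Oas2* had 23.9, 10.6, 11.1 and 8.91 CPM, and *Oasl1* 9.06, 4.63, 7.28 and 13.2 CPM. *Oas1a* lies in a cluster of near-identical copies whose reads the counting may have divided among them.

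IFIT proteins bind foreign RNA ends and block their translation. *Ifit2* had 24.7, 13.9, 13.8 and 10.1 CPM, *Ifit3* 14.8, 6.23, 10.9 and 14.8 CPM and *Ifit1* 8.75, 3.96, 5.29 and 5.90 CPM. All 3 were highest in PBS-WT, although *Ifit3* in BLEO-HPS1 stood at the same rounded level, and *Ifit3* has a close copy, *Ifit3b*, that can share its reads. *Isg15*, a ubiquitin-like protein attached to other proteins, had 13.4, 7.26, 13.4 and 21.3 CPM. *Usp18*, which removes ISG15 and damps the type I receptor, had 13.7, 6.40, 11.3 and 19.6 CPM, whereas *Herc6*, the mouse ISG15 ligase, had 21.1, 20.6, 11 and 7.98 CPM. *Isg15* and *Usp18* were lowest in PBS-HPS1 and highest in BLEO-HPS1, and *Herc6* was near equal in the PBS libraries and lowest in BLEO-HPS1.

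The Mx proteins and guanylate-binding proteins are large GTPases that act on virus particles and on pathogen-containing vacuoles. *Gbp2* had 68.4, 36.5, 46.2 and 60.5 CPM, *Gbp7* 62.4, 49.2, 28.5 and 20.3 CPM and *Gbp3* 39.3, 25.9, 24.9 and 24.2 CPM. All 6 genes of the group were highest in PBS-WT, and *Gbp2* was the only one of them that was higher in BLEO-HPS1 than BLEO-WT. Once corrected for transcript GC content and length, *Gbp3*, *Gbp5* and *Gbp7* were higher there too, at log2 ratios of 0.24, 0.25 and 0.22. *Mx1* and *Mx2* then stood at -0.038 and -0.54. *Gbp5* had 19, 14.2, 12.5 and 11.9 CPM, *Mx1* 17, 12, 10.4 and 8.33 CPM and *Mx2* 4.13, 3.26, 2.64 and 1.84 CPM. In the GENCODE M21 annotation *Mx2* is a polymorphic pseudogene, so its reads need not stand for a working protein. The *Gbp* genes are similar in sequence, so reads may be shared among them.

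*Samhd1*, which hydrolyses the nucleotides that DNA synthesis needs, had 676, 487, 456 and 431 CPM. *Cmpk2*, a mitochondrial nucleotide kinase, had 25.1, 13.3, 12.4 and 15.7 CPM. *Rsad2*, next to it in the genome and known as viperin, makes a chain-terminating nucleotide and had 21, 9.89, 10.3 and 9.80 CPM. PBS-WT was again the highest library for all 3, and the other libraries were close to each other for *Rsad2*.

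The next 3 members encode proteins of the membrane or its trafficking. *Ly6e*, a lipid-anchored surface protein that restricts coronavirus entry, had 755, 497, 770.2 and 1617 CPM, and *Bst2*, the tetherin that holds budding viruses to the cell, 64.1, 44.1, 91.1 and 158 CPM. Both were lowest in PBS-HPS1 and highest in BLEO-HPS1, although on the log2 scale the bleomycin libraries differed, BLEO-HPS1 over BLEO-WT, by 0.80 for *Bst2* and 1.07 for *Ly6e*, and by 0.10 and 0.65 once corrected for transcript GC content and length. *Rtp4*, a chaperone of receptor transport, had 32.4, 13.8, 14.7 and 17.7 CPM and was highest in PBS-WT. Per kilobase of transcript, the scale on which genes can be compared, *Ly6e* was also the most abundant member in BLEO-HPS1, at 709 CPM per kilobase, followed by *Ifi27l2a* at 279, *Bst2* at 200.0 and *Samhd1* at 109.7.

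PARP14 and PARP9 belong to the ADP-ribosyltransferase family, and DTX3L is the ubiquitin ligase that works with PARP9. *Parp14* had 142, 107, 76.3 and 53.8 CPM, *Dtx3l* 78.7, 53.4, 44.6 and 36 CPM and *Parp9* 58.8, 43.1, 44.4 and 32.5 CPM. All 3 were lowest in BLEO-HPS1, and *Parp9* and *Dtx3l*, which lie head to head on opposite strands, overlap. Of the remaining members, *Slfn5* of the Schlafen family had 179, 109.8, 80.2 and 54.6 CPM and *Trim30a*, a TRIM protein with close paralogs next to it, 93.5, 67.6, 46.8 and 26.7 CPM. Both were highest in PBS-WT and lowest in BLEO-HPS1. *Ifi27l2a*, a small membrane protein with a close copy, *Ifi27l2b*, had 50.1, 21.1, 48.6 and 129 CPM, and *Ifi35*, a leucine zipper protein, 42.3, 35.4, 43.2 and 83.9 CPM. *Xaf1*, which binds the apoptosis inhibitor XIAP, had 14.1, 10.3, 9.42 and 16.2 CPM. These 3 were highest in BLEO-HPS1. *Ifi44*, the member with the fewest reads, had 2.22, 1.59, 1.28 and 0.95 CPM, from 173, 157, 100 and 60 reads.

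The first comparison asked how loss of *Hps1* changed the sorted cells without injury. All 40 members had a lower level in PBS-HPS1 than in PBS-WT, against 70.8% of all genes tested, with a median log2 ratio of -0.60 beside -0.19 for all genes. In all, 10 members were at least 2-fold lower, 25% of the 40 against 3.11% of all genes, and none was at least 2-fold higher, against 2.16%. Relative to the median of all genes, which does not depend on the scaling, 38 of 40 were lower, against 50.0% of genes by construction. With total counts alone as the scaling, where the median of all genes was 0.051, 38 of 40 were lower and 5 at least 2-fold lower. *Herc6* and *Stat2* were the 2 exceptions to both, with log2 ratios of -0.035 (-0.13 to 0.060) and -0.16 (-0.21 to -0.11).

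Of the 10 members past 2-fold, 6 came from the OAS and IFIT families. *Oasl2* (ENSMUSG00000029561, chr5:114896936-114912234 on GRCm38, plus strand) was lowest, at a log2 ratio of -1.56 (-1.63 to -1.48), 2.94-fold lower, followed by *Oas3* at -1.46, *Oas1a* at -1.25, *Ifit3* at -1.25 and *Ifi27l2a* at -1.25. *Rtp4* (-1.23), *Oas2* (-1.17), *Ifit1* (-1.14), *Usp18* (-1.09) and *Rsad2* (-1.08) made up the rest. *Oasl1* stood just outside the limit at -0.97. The OAS family held 4 of the 10, with a median log2 ratio over its 5 genes of -1.25, while the medians were -0.45 in the PARP group and -0.46 in the GTPases. With a correction of the ratios for transcript GC content and length, the median was -0.64, 40 of 40 were below 0, against 76.0% of genes, and 10 were at least 2-fold lower, against 3.09%.

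Other markers moved between the same libraries. Neutrophil markers summed to 1549, 414, 834 and 389 CPM, and all 10 of them were at least 2-fold lower in PBS-HPS1 than in PBS-WT, with no marker at 0 reads in any library and *Camp*, an antimicrobial granule peptide, at 8.68, 0.212, 1.19 and 2.56 CPM. Monocyte and macrophage markers summed to 13178, 8910.5, 19732 and 17881 CPM, and markers of plasmacytoid dendritic cells, known as producers of type I interferon, to 100.4, 87, 79 and 90.6 CPM. The sort gate excluded Ly6G+ and CD11b+ cells, and the part of these cells in the members' ratios was not tested.

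The second comparison asked what bleomycin changed in wild-type cells. Here 36 of 40 members were lower in BLEO-WT than in PBS-WT, against 43.4% of all genes, with a median log2 ratio of -0.65 where that of all genes was 0.094. In all, 7 members were at least 2-fold lower, 17.5% of the 40 against 8.22% of all genes, and none was at least 2-fold higher, against 5.28%. Total counts alone gave 17 at least 2-fold lower, where the median of all genes moved to -0.17 and no share of all genes is given. Relative to the median of all genes 38 of 40 were lower, and this comparison shares the PBS-WT library, the highest for 27 members, with the comparison before it.

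*Oas3* (ENSMUSG00000032661, chr5:120753098-120777661 on GRCm38, minus strand) had the lowest ratio, at -1.28 (-1.35 to -1.21) on the log2 scale, 2.43-fold lower. *Slfn5* at -1.16, *Rtp4* at -1.14, *Gbp7* at -1.13, *Oas2* at -1.11, *Rsad2* at -1.03 and *Cmpk2* at -1.02 were the others past 2-fold. *Trim30a*, whose ratio fell just short of the 2-fold limit, and *Ifih1*, 1.94-fold lower, were next. The 4 members above 0 were *Bst2* at 0.51 (0.45 to 0.56), *Oas1a* at 0.10, *Ifi35* at 0.031 and *Ly6e* at 0.029. Corrected for GC content and length, the ratios had a median of -0.44, 39 of 40 were below 0, against 36.2% of genes, and 4 were at least 2-fold lower, against 5.08% of genes after the same correction.

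The third comparison asked the same in *Hps1*-/- cells, and the members divided: 20 were higher and 20 lower in BLEO-HPS1 than in PBS-HPS1, against 57.1% and 42.9% of all genes, with a median log2 ratio of 0.11 beside 0.25 for all genes. Of these, 12 were at least 2-fold higher, 30% of the 40 against 26.2% of all genes, and 6 at least 2-fold lower, 15% against 19.6%, so both shares were near those of all genes. With total counts alone, where the median of all genes was -0.39, 4 were higher and 14 lower by that much. *Ifi27l2a* (ENSMUSG00000079017, chr12:103442167-103443680 on GRCm38, minus strand) had the highest ratio, 2.62 (2.55 to 2.69), 6.13-fold, and *Oas1a* (ENSMUSG00000052776, chr5:120896256-120907521 on GRCm38, minus strand) the next, 2.46 (2.38 to 2.54), 5.50-fold. *Bst2* (1.84), *Ly6e* (1.70), *Usp18* (1.61), *Isg15* (1.55), *Oasl1* (1.51), *Zbp1* (1.29), *Ifi35* (1.25), *Ifit3* (1.25), *Dhx58* (1.21) and *Irf7* (1.19) completed the 12.

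The 6 members at least 2-fold lower were *Herc6* at -1.36, *Trim30a* at -1.34, *Gbp7* at -1.27, *Ifih1* at -1.19, *Eif2ak2* at -1.04 and *Slfn5* at -1.01. *Parp14* lay just outside at -0.99. None of these calls held once the ratios were corrected for transcript GC content and length: the 6 values became 0.32, 0.044, 0.22, 0.16, 0.019 and 0.19 in the same order. After the correction 36 of 40 members were above 0, against 65.8% of genes, 7 were at least 2-fold higher, against 17.6%, none was at least 2-fold lower, against 7.74%, and the median was 0.51 beside 0.32 for all genes. Of the 12 members named as at least 2-fold higher, 5 stayed past the limit, *Oas1a* (1.98), *Ifi27l2a* (1.62), *Ifit3* (1.25), *Usp18* (1.21) and *Ly6e* (1.09). The other 7 ranged from 0.47 for *Ifi35* to 0.84 for *Oasl1*, and *Ifit1* (1.41) and *Gbp2* (1.06) were past it after the correction only. Relative to the median of all genes, 19 of 40 were higher before the correction and 23 after it.

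The split followed the composition of the transcripts. Across the 40 members, whose transcripts range from 39.4% to 56.3% GC, the ratio of BLEO-HPS1 to PBS-HPS1 had a Spearman's rho of 0.82 with GC content and of -0.81 with transcript length, where rho with GC content over all genes tested was 0.58. These are descriptions across genes of the same libraries, and genes are not independent replicates. Among the 20 members with a GC content at or above the member median of 48.2%, 16 were above 0, with a median of 1.20, and among the 20 below it 4 were, with a median of -0.50. The corrected medians of these groups of 20 were 0.67 and 0.31, and across the members the corrected ratio still had a rho of 0.29 with GC content and of -0.58 with length, where over all genes rho was 0.022 and -0.060. In BLEO-HPS1 against BLEO-WT rho with GC content was 0.81, in BLEO-WT against PBS-WT 0.62 and in PBS-HPS1 against PBS-WT -0.31. The origin of this relation was not tested.

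**Figure D2:**
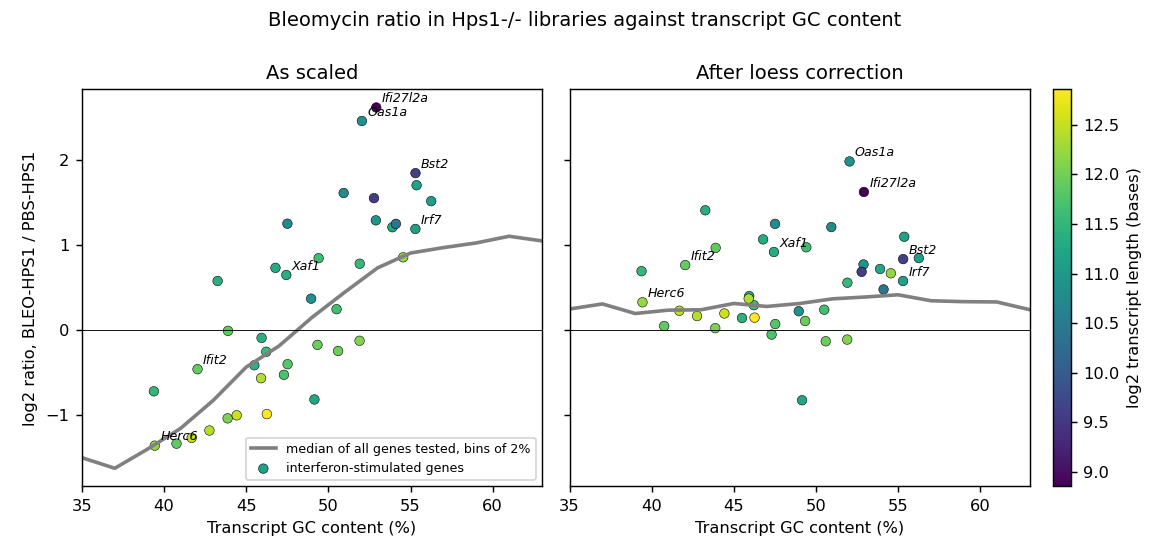
Log2 ratio of BLEO-HPS1 to PBS-HPS1 for the 40 genes (points, coloured by log2 transcript length in bases) against transcript GC content in percent, as scaled (left) and after loess correction for GC content and length (right). The grey line is the median of all genes tested in bins of 2% GC, and the points climb with it on the left, from -1.36 for *Herc6* to 2.62 for *Ifi27l2a*, and less steeply on the right, where rho is 0.29.

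The fourth comparison asked how the genotypes differed after bleomycin. In BLEO-HPS1, 5 members stood at least 2-fold above BLEO-WT, 12.5% of the 40 against 6.72% of all genes, and none stood as far below it, against 10.3%. The 5 were *Ifi27l2a* at a log2 ratio of 1.41 (1.36 to 1.47), 2.66-fold, *Oas1a* at 1.10, *Ly6e* at 1.07, *Irf7* at 1.04 and *Zbp1* at 1.02. *Ifi35* was just outside at 0.96. Scaled by total counts alone, where the median of all genes was -0.17, 1 member was past 2-fold. Of the 40 members, 20 were lower in BLEO-HPS1, against 52.2% of all genes, and the lowest were *Trim30a* at -0.81, *Ifih1* at -0.74, *Eif2ak2* at -0.64, *Slfn5* at -0.55 and *Mx2* at -0.52. The member median was 0.075 beside -0.043 for all genes, and 47.8% of all genes were above 0.

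No member was at least 2-fold different between these libraries after correction for GC content and length, where 4.91% of genes were higher and 4.43% lower. The 5 ratios became 0.54, 0.78, 0.65, 0.62 and 0.67 in the same order. The corrected ratios were above 0 in 32 of 40 members, against 44.5% of genes, with a median of 0.25 beside -0.061, and 34 of 40 lay above the median of all genes. Within role groups, the median before correction was 0.80 for the membrane proteins, 0.67 for the OAS family and for *Isg15* and its enzymes, and -0.45 for the PARP group. Corrected, the medians were closer together, at 0.18, 0.40, 0.29 and 0.078 for the membrane proteins, the OAS family, the *Isg15* group and the PARP group. As scaled, *Oas2*, at -0.31, was the only OAS gene lower in BLEO-HPS1, *Ifit2*, at -0.45, the only IFIT gene, and *Herc6*, at -0.46, the only one of the ISG15 group. After the correction *Oas2* stayed below 0, at -0.26, while *Ifit2* stood at 0.16 and *Herc6* at 0.29.

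**Figure D3:**
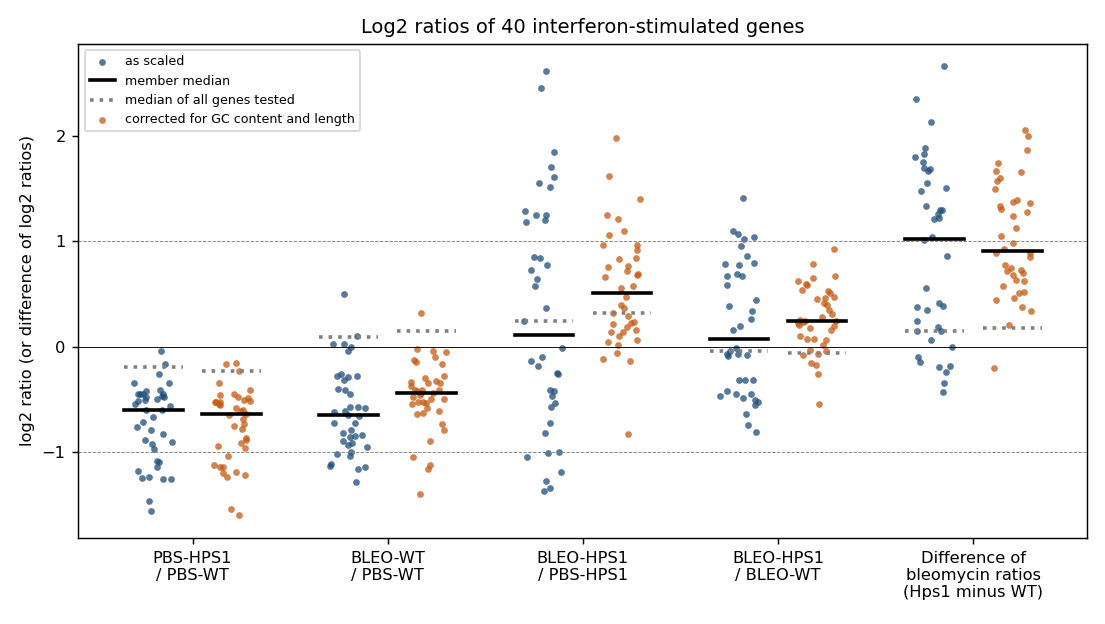
Log2 ratios of the 40 genes (points) in the 4 comparisons and the difference of the bleomycin log2 ratios between genotypes, as scaled (blue) and corrected for GC content and length (orange). Solid bars are member medians, dotted bars medians of all genes tested and dashed lines the 2-fold limits, and the member medians lie below those of all genes in the left 2 comparisons, at -0.60 and -0.65 as scaled.

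Markers of other cells also differed between the bleomycin libraries. Fibroblast markers summed to 164, 298, 539.6 and 2679.6 CPM, with 5 of 6 at least 2-fold above BLEO-WT in BLEO-HPS1. B cell markers summed to 143, 159, 153 and 355 CPM, T cell markers to 573, 417, 497 and 858 CPM and NK cell markers to 130.2, 215, 61.3 and 229 CPM, and each of these sums was highest in BLEO-HPS1, as were those of endothelial markers at 711, 675, 643 and 897 CPM and of ILC2 markers at 738, 675, 537 and 768 CPM. The sums hide their members in 2 of these lists, since 7 of 11 ILC2 markers and 5 of 6 NK cell markers were highest in PBS-HPS1, and *Thy1* (306.5, 206, 224 and 551 CPM) and *Gzma* (58.2, 87.3, 23.5 and 141 CPM) carried the sums in BLEO-HPS1. Epithelial markers summed to 1000.3, 712, 530.4 and 378 CPM, with the lowest sum in BLEO-HPS1. Their members were mixed there, with 3 of 6 at their lowest level and 2 at their highest. The part of these cells in the members' ratios was not tested.

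**Figure D4:**
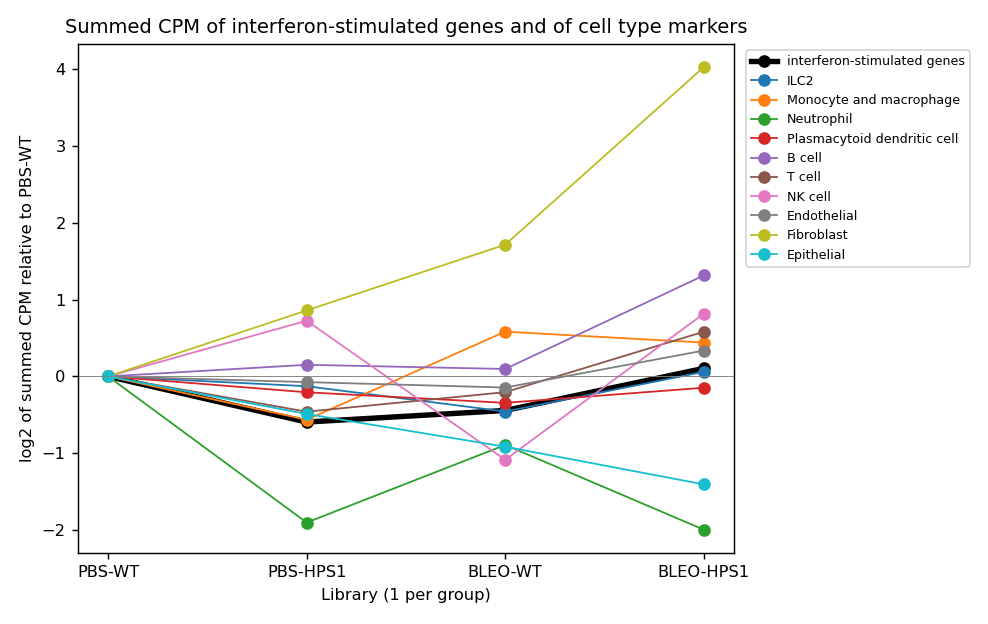
Summed CPM of the 40 interferon-stimulated genes (thick black line) and of 10 lists of cell type markers (thin lines) in each library, as the log2 of the sum relative to PBS-WT, with 1 library per point. From PBS-WT to PBS-HPS1 the sum of the 40 genes falls from 3336 to 2210 CPM. Sums of B cell, NK cell and fibroblast markers rise there, and those of all other lists fall, neutrophil markers furthest, from 1549 to 414 CPM. In BLEO-HPS1 neutrophil markers stand at 389 CPM, and fibroblast markers climb to 2680 CPM.

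The response to bleomycin can be set side by side in the genotypes as the difference of the log2 ratios, *Hps1*-/- minus wild-type. This difference was 1 or more in 21 of 40 members, 52.5% against 16.3% of all genes, and -1 or less in none, against 11.2%, with a median of 1.03 beside 0.15 for all genes. Total counts alone gave 13 members at 1 or more, where the median of all genes was -0.23, and the GC and length correction 18, where it was 0.18. No share of all genes is given for these 2 settings, so their counts are not to be set against the 16.3%. All 4 libraries enter it, so it shares them with the comparisons above, including the high PBS-WT and the low PBS-HPS1 levels. Relative to the median of all genes 31 of 40 were above, and corrected for GC content and length 39 of 40, with a corrected median of 0.91 beside 0.18. The difference was above 0 in 32 of 40 members, against 55.5% of all genes, and in 39 of 40 after the correction, against 61.9%. *Ifi27l2a* had the largest difference, 2.66, followed by *Oas1a* at 2.35, *Oas3* at 2.13, *Usp18* at 1.88 and *Oasl1* at 1.83. After the correction the order was *Oas3* at 2.06, *Oas1a* at 2.00, *Oasl2* at 1.86, *Ifit1* at 1.74 and *Ifi27l2a* at 1.66. The smallest before it were those of *Herc6* at -0.43, *Trim30a* at -0.34, *Ifih1* at -0.23, *Eif2ak2* at -0.19 and *Mx2* at -0.18. After it *Mx2* alone was below 0, at -0.20.

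In 16 members the ratio was below 0 in wild-type and above 0 in *Hps1*-/- cells, 40% against 10.7% of all genes, and the reverse was seen in none, against 10.2%. After correction for GC content and length 35 members had this pattern, against 13.7%. *Oas3* went from -1.28 in wild-type to 0.85 in *Hps1*-/- cells, *Oasl2* from -0.91 to 0.84, and *Irf7* from -0.62 to 1.19. With total counts alone as the scaling, 26 of 40 differences were above 0 in place of 32, and 31 lay above the median of all genes under either scaling.

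**Figure D5:**
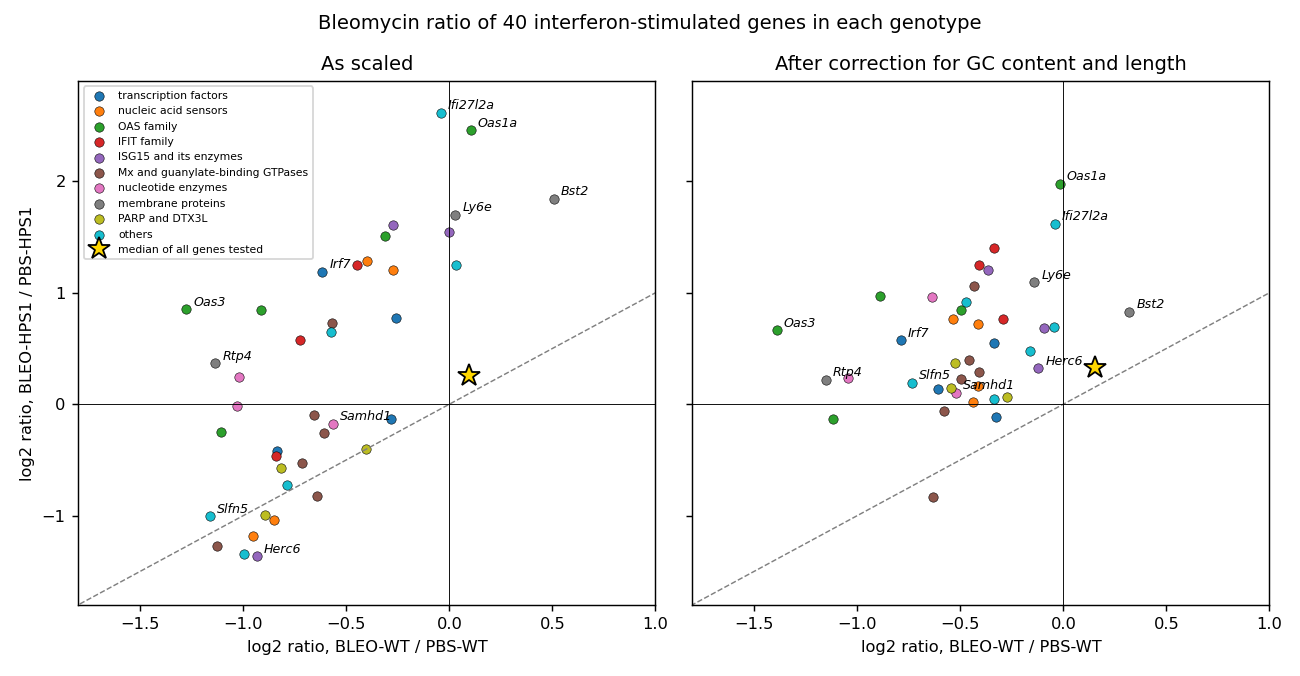
Log2 ratio of bleomycin to PBS in wild-type (horizontal) and in *Hps1*-/- libraries (vertical) for the 40 genes, coloured by role, as scaled (left) and after correction for GC content and length (right), with equal ratios on the dashed line and the median of all genes tested as a star. Most points lie above the dashed line, 32 of 40 on the left and 39 of 40 on the right.

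The members were also divided by the longer promoter motif. Among the 16 with the longer form the median log2 ratio of PBS-HPS1 to PBS-WT was -0.65, and among the 13 matched members without it -0.50. For the difference of the bleomycin ratios the medians were 0.79 and 1.04. *Oas1a* and *Trim30a*, both printed above with the motif, had differences of 2.35 and -0.34.

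Around the members stand the ligands, receptors and kinases of the pathway. Of 21 interferon genes, *Ifng* alone passed the filter, at 14.1, 16.7, 4.49 and 7.80 CPM, and was at least 2-fold lower after bleomycin in both genotypes, at log2 ratios of -1.65 and -1.10. Of the 21, 7 had no read in any library, and *Ifnb1*, the first type I interferon made by most cells, reached at most 0.268 CPM, in BLEO-WT. All 6 receptor genes passed. *Ifnar1* stood at 99.2, 107, 134 and 106 CPM, *Ifnar2* at 87.1, 66.1, 106 and 118 CPM, and *Ifngr1* at 391, 387, 439 and 373 CPM. The receptors differed by less than 2-fold in every comparison but 1, *Ifnlr1*, which encodes the type III receptor chain, in PBS-HPS1 against PBS-WT (3.18, 1.51, 1.75 and 1.12 CPM, log2 ratio -1.06). *Ifngr2* had 87.7, 70.3, 123 and 111 CPM, and *Il10rb* 66.3, 49, 104 and 93.8 CPM.

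*Stat3*, a signal carrier for many cytokines, had 287, 269, 357 and 339 CPM. *Socs3*, a feedback inhibitor, was the only one of 11 genes for kinases, STATs and feedback at least 2-fold above PBS-WT in BLEO-WT, at 1.73 on the log2 scale, and in *Hps1*-/- cells it stood at 1.58. *Jak2* was the only one of the 11 at least 2-fold below BLEO-WT in BLEO-HPS1, at -1.18. Among 7 other interferon regulatory factors *Irf5* alone passed 2-fold, at 1.67 in BLEO-HPS1 against PBS-HPS1.

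Genes best known as targets of interferon gamma moved both ways in *Hps1*-/- cells after bleomycin. In BLEO-HPS1, 8 of 18 tested stood 2-fold or more above PBS-HPS1, 44.4% against 26.2% of all genes, and 4 stood 2-fold or more below, 22.2% against 19.6%. Those higher include the immunoproteasome subunits *Psmb8* (1.96), *Psmb9* (1.64) and *Psmb10* (1.68) and the peptide transporter genes *Tap1* (1.77) and *Tap2* (1.21), and those lower were *Gbp8* (-2.54), *Gbp4* (-2.07), *Cd274* (-1.86) and *Gbp9* (-1.71). Corrected for GC content and length, 4 of 18 were at least 2-fold higher and 2 lower, against 17.6% and 7.74%, and the 4 named as lower stood at -1.997, -0.85, -1.04 and -0.49. Against BLEO-WT, 4 of 18 were 2-fold or more higher in BLEO-HPS1, against 6.72% of all genes, *Psmb9* (1.29), *Psmb8* (1.20), *Tap1* (1.11) and *Psmb10* (1.08), and *Cd274*, which encodes the checkpoint ligand PD-L1, was the only one at least 2-fold lower, against 10.3%, at -1.47. After the same correction these 4 stood at 0.75, 0.67, 0.69 and 0.49, and *Cd274* at -1.01. *Cxcl9*, a chemokine, was the only one of the 18 at least 2-fold lower in PBS-HPS1 than in PBS-WT, with 9.71, 2.48, 4.23 and 5.38 CPM and a log2 ratio of -1.96.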

How the data were processed

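RNA-Seq of cultured mouse lung cells that were sorted and labelled as ILC2s was analysed in 4 libraries, 1 per group. Per the labels, total RNA was taken to libraries with a SMARTER mRNA kit. The authors deposited a table of raw read counts, with 49315 genes under Ensembl identifiers and no normalization. The aligner, counting tool, genome build and annotation are not given in the sources used here.

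Libraries were scaled in edgeR 4.0.16 (R 4.3.3) by TMM, with factors of 1.08 and 1.27 for PBS-WT and PBS-HPS1 and 0.895 and 0.816 for BLEO-WT and BLEO-HPS1. Log2 CPM used a prior count of 2. Comparisons were limited to 14840 genes whose CPM reached 1 in some library, and a ratio of 2-fold or more was called. Intervals were Clopper-Pearson intervals at 95% from SciPy 1.17.1. PCR copies are not separate molecules, so these intervals cover counting error only. GC content and length were found in GENCODE M21 (GRCm38) for 14813 of the genes tested. They were those of the longest protein-coding transcript, or of the longest transcript where a gene had no protein-coding one. The correction was a loess fit with a span of 0.3. It was tested on simulated data for BLEO-HPS1 against BLEO-WT only. Promoter windows were from RefSeq.

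The 40 members, the pathway lists and the marker lists were chosen with earlier results of these data known. Values in every library are given for all 40 members, more than the naming rule required (the 3 most abundant of each role group, the 5 largest ratios in each direction and those against their group). Of the wider pathway, ligands, receptors, STATs and, where they number 5 or fewer, genes past 2-fold are named, 1 item is not reported here, and the other interferon gamma targets and sensing genes named were chosen after their values were seen. Alternatives were DESeq2 1.42.0 size factors, total counts, prior counts of 0.5 and 10, at least 10 counts in every library, no filter, limits of 1.5-fold and 4-fold and the GC and length correction.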

Additional observations from a re-analysis of the deposited data

Results flagged for a closer look

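For 14 members the ratio of bleomycin to PBS lay below 0 in wild-type and above 0 in *Hps1*-/- cells, with both counting intervals away from 0. The share of all genes under this rule was not taken, so it is not known whether the count of 14 is unusual. By sign alone 16 members had the pattern, against 10.7% of all genes, and 0 had the reverse, against 10.2%. With total counts alone 11 of the 14 kept these opposite signs. The ratios of BLEO-HPS1 to PBS-HPS1 of *Cmpk2*, *Rtp4* and *Ifit1* were then -0.40, -0.28 and -0.066, while that of *Xaf1* stood near 0. The difference between the genotypes was not tested, since each group was 1 library. The differences of the log2 ratios, *Hps1*-/- minus wild-type, were, in the OAS family, 2.13 for *Oas3*, 1.83 for *Oasl1* and 1.76 for *Oasl2*. Among regulators and sensors they were 1.88 for *Usp18*, 1.80 for *Irf7*, 1.69 for *Zbp1*, 1.48 for *Dhx58* and 1.04 for *Irf9*. Among effectors they were 1.70 for *Ifit3*, 1.5 for *Rtp4*, 1.30 for *Ifit1*, 1.30 for *Gbp2*, 1.26 for *Cmpk2* and 1.22 for *Xaf1*. All 14 had ratios of PBS-HPS1 to PBS-WT below 0, from -1.56 for *Oasl2* to -0.44 for *Xaf1* on the log2 scale. So did all 40 members and 70.8% of all genes, so this does not set the 14 apart. Marker sums in PBS-WT and PBS-HPS1 were 1549 and 414 CPM for neutrophils and 13178 and 8910 CPM for monocytes and macrophages. They were 573 and 417 CPM for T cells and 1000 and 712 CPM for epithelial cells, whereas sums for B cells, NK cells and fibroblasts were higher in PBS-HPS1. The part of those cells was not tested.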

How the results depend on the processing

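No paired analysis was possible because each group was 1 library, and for the same reason no replicate could be left out. Scaling set the position of 0. With total counts alone the median of all genes moved to 0.051, -0.17, -0.39 and -0.17 in PBS-HPS1 against PBS-WT, BLEO-WT against PBS-WT, BLEO-HPS1 against PBS-HPS1 and BLEO-HPS1 against BLEO-WT, and the member medians to -0.36, -0.91, -0.53 and -0.058, with 0.65 for the difference of the bleomycin ratios. The counts at least 2-fold then were 5 lower, 17 lower, 4 higher with 14 lower, and 1 higher in the same order. The distance of the member median from that of all genes stayed at -0.41 in the first comparison under each of these scalings.

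Corrected for GC content and length, the member medians of the last 3 comparisons were -0.44, 0.51 and 0.25, that of the difference was 0.91, and the 2-fold counts were 4 lower, 7 higher with 0 lower, and 0 higher. Under it 16 ratios of BLEO-HPS1 to PBS-HPS1 turned from below to above 0. The 6 of them that had been at least 2-fold lower moved to 0.16 for *Ifih1*, 0.019 for *Eif2ak2*, 0.32 for *Herc6*, 0.22 for *Gbp7*, 0.044 for *Trim30a* and 0.19 for *Slfn5*, and the cause was not tested beyond this construction. A 4-fold limit left 0 lower in the first comparison and the second, 2 higher and 0 lower in the next and 0 higher in the last. A 1.5-fold limit gave 21 lower, 23 lower, and 14 higher with 3 lower in the first, the second and the last. No share of all genes is given for these limits or for total counts alone, so these counts describe the members only.

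DESeq2's size factors kept 60 of 61 single 2-fold calls of members, differences included, and total counts 36, and either prior count kept 61. The GC and length correction kept 36, took 19 inside the limit and turned 6. For the difference of the bleomycin ratios, total counts alone gave 13 members at 1 or more in place of 21. Depth was no limit for most members, but *Ifi44*, with 60 reads in BLEO-HPS1, had an interval of -0.91 to 0.051 for its log2 ratio to BLEO-WT.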

Other observations

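Genes that sense microbes or nucleic acid upstream of interferon moved both ways in *Hps1*-/- cells after bleomycin. In BLEO-HPS1, 3 of 18 tested stood 2-fold or more above PBS-HPS1 and 3 stood 2-fold or more below, where 26.2% and 19.6% of all genes were. With 18 genes these counts do not set the list apart from all genes. *Unc93b1*, which carries endosomal Toll-like receptors to their compartment, had 329, 214, 582 and 796 CPM. *Tmem173*, which encodes STING, had 75.3, 47.3, 94.4 and 154 CPM, and *Tlr9*, a DNA receptor, 24.1, 10.5, 28.7 and 32.7 CPM. These 3 were the ones higher. *Tlr4*, the lipopolysaccharide receptor, had 44, 39.5, 29.5 and 9.85 CPM, *Tlr8* 48, 46.4, 35.3 and 15.9 CPM and *Tbk1*, the kinase that activates IRF3, 56.5, 58.3, 50.0 and 24.2 CPM, and these were the ones lower. After correction for GC content and length their log2 ratios were 1.20, 1.42 and 1.18, and -0.40, -0.13 and -0.62.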
